A study of Mus musculus with 4 samples.

Results

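The translation factor genes described here are the protein-coding genes of the mouse whose symbols name an initiation factor (eIF1 to eIF6) or an elongation factor (eEF1 or eEF2), with their direct kinases, inhibitors and methyltransferases where the symbol carries the same stem. The rule is a pattern on the gene symbol and uses no measured value. Of 37646 genes listed, 18730 were protein-coding and 70 of these matched the pattern. Eif2ak3 and the Y-linked Eif2s3y were left out by the rule, which leaves 68 genes, on 19 autosomes or the X chromosome (2 genes). A further 13 pseudogene rows with matching names were not counted as members.

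Poly(A) RNA was sequenced in 4 libraries, all of 1 group. The cells came from spleens of C57BL/6 control mice with the genotype YFPstopF/+ Cg1Cre/+, in which Cre is expressed from the Ighg1 (Cg1) locus and releases a YFP reporter from its stop cassette. The mice were immunised with sheep red blood cells, boosted after 20 days, and their spleens were collected 10 days after the boost. B220+ YFP+ cells were sorted after dead cells had been gated out with 7AAD, and the labels call them GC (germinal centre) B cells. The reporter stays on in every descendant of a cell in which Cre was once active, so it also marks memory and plasma cells. Age and sex are not in the labels, the lymphoma samples named in the design text are not analysed here, and there is no second group. The comparisons are therefore between genes within a library and between libraries 1 to 4. Whether each library is a separate animal is not stated, so the p-values measure only the spread between these samples, which may be in part technical.

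Totals ran from 13777954 to 14629025 counts per library, and mitochondrial genes took 18.1% to 23.3% of them. Levels are given in TPM, counts divided by the length of the union of a gene's exons and scaled to the same sum in each library over all genes with a length, mitochondrial genes included. B lineage markers (Cd79a, Cd79b and others, 7 of 7 at 1 TPM or more in every library) summed to 3858 to 5038 TPM and germinal centre markers (Bcl6, S1pr2 and others, 8 of 8) to 1303 to 2232 TPM. Markers of naive and memory B cells (6 of 6) summed to 1409 to 2615 TPM, plasma cell markers (5 of 5) to 791 to 1841 TPM, T cell markers (6 of 6) to 158 to 412 TPM, myeloid markers (6 of 6) to 126 to 281 TPM and erythroid and platelet markers (3 of 6) to 55.2 to 172 TPM. No marker was at 0 in all libraries, so the libraries held RNA of genes that mark other cell types beside that of B cell genes. In such bulk samples fewer cells of a type and less RNA per cell cannot be told apart. Library 3 stood apart: it had 1307 counts of the Y-linked Ddx3y, at most 3 in the others, and 6 of Xist, at least 8689 in the others. By these transcripts library 3 came from male cells and the others from female cells, so it was not a technical repeat of them.

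Translation begins when eIF2, bound to GTP, carries the initiator methionyl-tRNA to the small ribosomal subunit, which eIF1, eIF1A and eIF3 prepare for binding mRNA. The cap-binding protein eIF4E, the scaffold eIF4G and the helicase eIF4A bring the mRNA, and eIF5 and eIF5B complete the joining of the large subunit. In elongation eEF1A delivers aminoacyl-tRNA and eEF2 moves the ribosome along. Germinal centre B cells divide fast and activated B cells raise their protein synthesis. Messenger RNAs of many translation factors are also known for a run of pyrimidines at their first base, through which their own translation follows growth signals.

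Start sites were looked at for such a run, because it is a feature of this family that the choice of genes did not use. RefSeq start windows of the build GRCm38.p6 were found for 52 of the 68 genes, and each window holds 15 bases before the annotated start and the first 15 transcribed bases. The feature searched for was a C followed by at least 4 further C or T, read on the transcribed strand alone, and a gene was counted at the start only where the annotated first base is itself that C. This held for the eIF3 subunit gene Eif3f and the eIF2 gamma subunit gene Eif2s3x. The windows of Eef1a1, Eif3l and Eif4g1 are shown beside them as abundant genes with a run near the start that were not counted at it: the run of Eef1a1 spans the first base without a C there, and those of Eif3l and Eif4g1 begin after it. Capitals mark the whole run.
Eif3f (chr7:108934400-108934429, + strand): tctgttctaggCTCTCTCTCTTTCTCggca
Eif2s3x (chrX:94212637-94212666, - strand): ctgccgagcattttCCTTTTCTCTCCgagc
Eef1a1 (chr9:78481710-78481739, - strand): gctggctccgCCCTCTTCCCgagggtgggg
Eif3l (chr15:79075208-79075237, + strand): gcgcggagttcttcttccgCTCTCTCCCac
Eif4g1 (chr16:20672712-20672741, + strand): cgccagcgcagctccgCCCTCTgcgccggt

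At the annotated start, by this rule, 2 of the 52 genes (3.85%) had the run, against 3.01% of 27025 genes with a window. With a run that begins within 10 bases of the start there were 17 of the 52 (32.7%), against 34.4% of all. A gene with several windows was counted if any of them held the run. The shares were close under both counts, but the one at the start rests on 2 genes, too few to show whether the frequencies differ. An annotated start is not a measured one, and the reads used here do not place it.

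Translation factor genes were abundant as a group. At 1 TPM or more in every library were 63 of 68 (92.6%), against 53.3% of 18712 protein-coding genes with a length. At 100 TPM or more in every library were 18 of 68 (26.5%), against 3.15% of protein-coding genes. The median translation factor had 52.3 TPM and the median protein-coding gene 2.45 TPM, and 35 of the 68 were in the top decile of protein-coding genes. The 5 below 1 TPM in some library were Eef1akmt3, Eif3j2, Eef1a2, Eif4a3l1 and Eif4a3l2. The 68 genes together took 1.592% of the counts in library 1 (exact 95% binomial interval 1.586% to 1.599%), 1.376% in library 2 (1.370% to 1.382%), 1.728% in library 3 (1.722% to 1.735%) and 1.631% in library 4 (1.624% to 1.637%). The intervals are for counting error alone, because PCR copies of a molecule could not be told from separate molecules. The share was lowest in library 2 and highest in library 3, also with mitochondrial counts left out (2.01%, 1.80%, 2.11% and 2.03%).

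**Figure D1:**
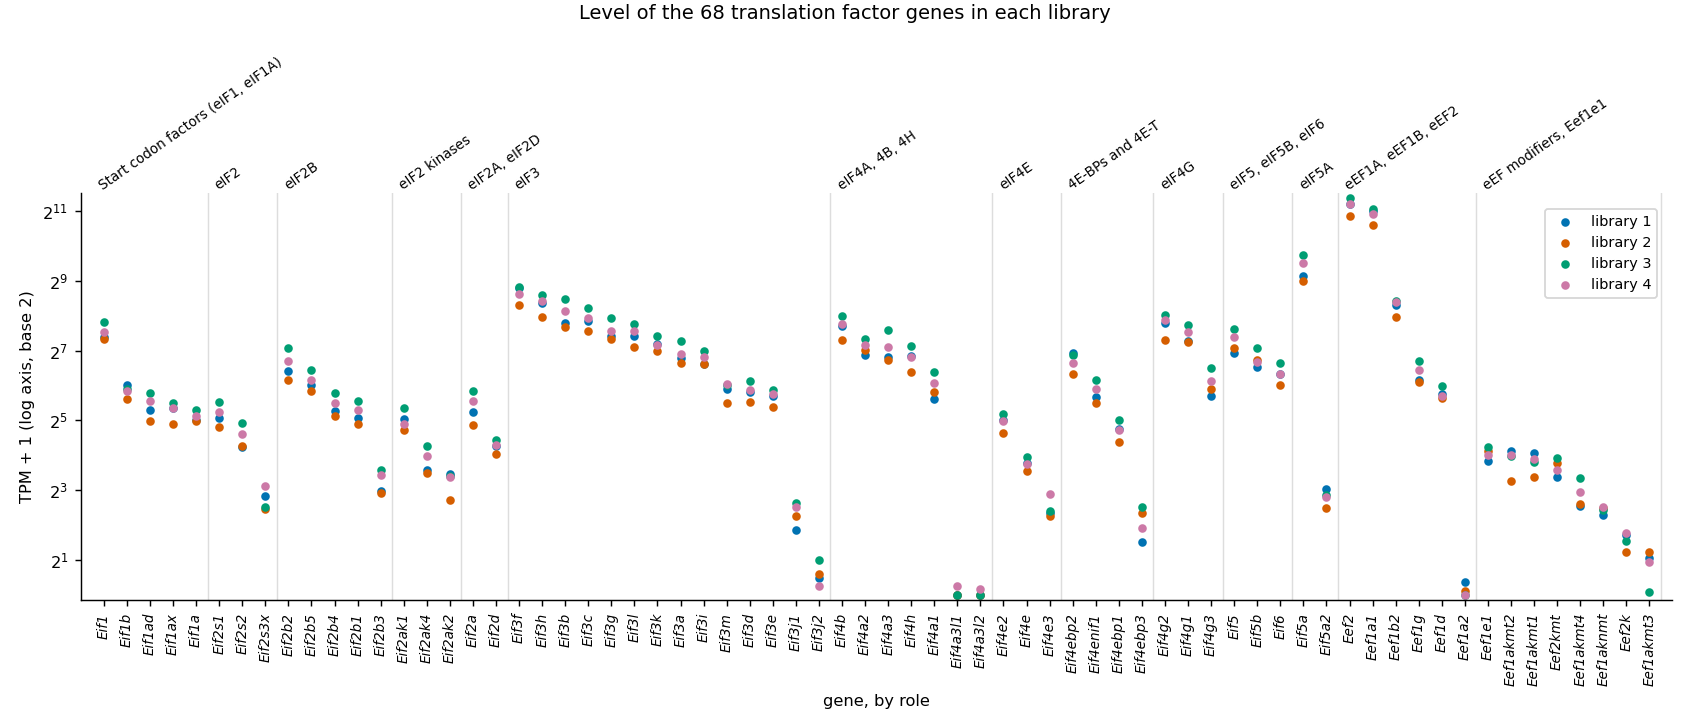
TPM + 1 (log axis, base 2) of each of the 68 translation factor genes, ordered by role and, within a role, by mean level, with 1 point per library. Eef2 and Eef1a1 lie above all others with means of 2296 and 1915 TPM, Eif3f leads the eIF3 subunit genes with 402 TPM, and Eef1a2, Eif4a3l1 and Eif4a3l2 lie at the bottom of the axis.

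The plot of levels by role shows levels that differed widely between genes, also within a role. The elongation factors themselves headed the scale. Eef2, which encodes the translocase (chr10:81176631-81182498, + strand, GRCm38), had 2352, 1838, 2640.5 and 2354 TPM in libraries 1 to 4. Eef1a1, the main gene of the factor that brings aminoacyl-tRNA (chr9:78478449-78489151, - strand), had 2049, 1560.2, 2142 and 1909.8 TPM. On TPM both were lowest in library 2 and highest in library 3, and Eef2 was above Eef1a1 in each library. On TMM-scaled CPM (counts scaled by library total and edgeR's TMM factors) both stayed lowest in library 2 but were highest in library 1. There Eef2 had 3572 and Eef1a1 2334, against 3457 and 2103 in library 3. Together they made up 42.2% ± 1.87 (SD, n = 4) of the summed TPM of all 68 genes. With the length of the coding transcript (the spliced length of the transcript with the longest coding sequence) in place of the union of exons the order turned, with means of 1986 TPM for Eef2 and 2140.3 TPM for Eef1a1.

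Eef1a1 has many processed pseudogenes, copies of its mRNA in the genome. Of the 50-base windows of its coding transcript, 39.4% were unique among annotated transcripts, and 18 pseudogenes were among the genes that shared the rest. The sources used here do not give how reads with several matches were treated. The pseudogene that shared most windows, Gm13456, had 293, 216, 230 and 271 counts beside 32889, 25434, 31498 and 30166 counts of Eef1a1. So few counts were assigned to that copy, whatever became of the shared reads.

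Eef1a2, the form of eEF1A known from muscle and neurons, had 4, 1, 0 and 0 counts, which is 0.298 and 0.0734 TPM in libraries 1 and 2. A count of 0 allows up to 3 counts at this depth. In eEF1B, the complex that recharges eEF1A with GTP, Eef1b2 reached 309 ± 40.6 TPM (SD, n = 4), Eef1g 81.6 ± 16.3 TPM and Eef1d 54.1 ± 6.09 TPM. Eef1g counts rest on a transcript of which 35.7% of windows were unique.

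The enzymes that modify elongation factors were low. Eef2k, the kinase that inactivates eEF2, had 2.29, 1.34, 1.92 and 2.45 TPM. Eef1e1, whose protein belongs to the multi-tRNA synthetase complex, was the highest of this list with 13.3, 16.5, 17.8 and 15.1 TPM. Among the methyltransferases, Eef1akmt2 had 13.7 ± 3.45 TPM (SD, n = 4), Eef1akmt1 13.0 ± 2.69 TPM, Eef2kmt 11.8 ± 2.14 TPM, Eef1akmt4 6.43 ± 1.98 TPM and Eef1aknmt 4.40 ± 0.388 TPM.

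Eef1akmt3, a lysine methyltransferase of eEF1A, had 19, 24, 1 and 16 counts in libraries 1 to 4, or 1.09, 1.35, 0.0623 and 0.929 TPM. Library 3 thus had 1 count where the others had at least 16. The gene did not pass the filter on low counts. Tested without that filter, its variation was under 0.05 before adjustment and had an adjusted p of 0.807 (edgeR's quasi-likelihood fit, Benjamini-Hochberg adjustment).

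Eif5a encodes the factor, carrying the modified lysine hypusine, that helps ribosomes past slow peptide bonds. It was the next most abundant gene, with 562, 505, 847 and 721 TPM (chr11:69916714-69921958, - strand). Its paralog Eif5a2 had 7.14, 4.59, 6.24 and 5.93 TPM, a mean 110.2 times lower. The gap was 6.55 ± 0.33 on the log2(TPM + 1) scale (SD, n = 4), widest in library 3 and narrowest in library 1.

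In the initiation machinery the 14 subunit genes of eIF3, the scaffold of the small subunit, summed to 2137 ± 365 TPM (SD, n = 4), and 7 of them reached 100 TPM in every library. Eif3f led with 442, 316, 453 and 396 TPM, followed by Eif3h with 330.4, 249, 384 and 339.7 TPM. These came first and second in each library. The core subunit genes were of unequal level: Eif3b had 221, 203, 353 and 278 TPM, Eif3c 227, 187, 296 and 242 TPM, and Eif3a, the largest subunit, 109, 98.0, 152 and 118 TPM. Eif3a was below Eif3b and Eif3c in each library.

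Among the other eIF3 subunits, Eif3g had 169, 159, 243 and 187 TPM, and Eif3l 168, 135, 218 and 189 TPM. Eif3k, which pairs with Eif3l in the complex, had 144, 126, 169 and 141 TPM. Eif3i had 96.3, 96.3, 126 and 112 TPM. These 4 genes were highest in library 3, as were Eif3a, Eif3b and Eif3c.

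Lower still were 3 subunit genes near 50 TPM. Eif3m had 58.6, 43.9, 63.5 and 64.9 TPM, and Eif3d, whose protein can itself bind the cap, had 55.02, 44.7, 69.0 and 57.0 TPM. Eif3e had 51.1, 40.5, 57.1 and 53.3 TPM. The 3 overlapped across libraries, and library 2 was the lowest for each.

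The loosely bound subunit eIF3j is encoded in the mouse by a pair of near-identical genes. Eif3j1 had 2.66, 3.83, 5.15 and 4.76 TPM. Eif3j2 had 0.392, 0.514, 0.998 and 0.199 TPM, from 6, 8, 14 and 3 counts. Of their windows 45.2% (Eif3j1) and 8.15% (Eif3j2) were unique, mostly because they share them with each other, so both levels are uncertain.

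**Figure D2:**
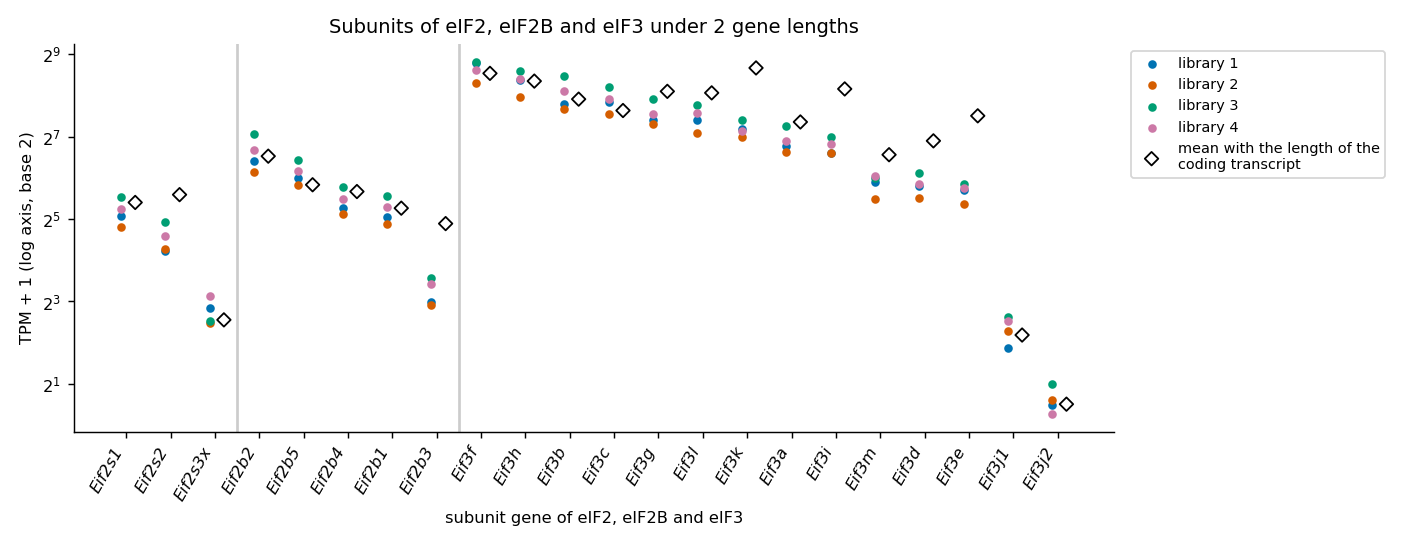
TPM + 1 (log axis, base 2) of the subunit genes of eIF2, eIF2B and eIF3 in each library (points) and the mean level with the length of the coding transcript (open diamonds). Diamonds lie well above the points for Eif2s2, Eif2b3, Eif3k, Eif3i, Eif3d and Eif3e, and close to them for Eif3f, Eif3h and Eif2s1.

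Part of the unevenness within eIF3 depended on the gene length used, as the plot of subunits under 2 gene lengths shows. With the length of the coding transcript, the mean of Eif3k rose from 145 to 407 TPM, that of Eif3i from 108 to 285 TPM and that of Eif3e from 50.5 to 181 TPM. Eif3f (402 and 371 TPM) and Eif3h (326 TPM under both) hardly moved. Over all translation factors this length raised 18 of 68 mean levels by more than 1.5 times and lowered none by as much. The union of exons also counts exons of retained-intron and other non-coding transcripts, and a level under it can therefore be too low for the coding mRNA. Means of other genes that rose by more than 1.5 times were 476 TPM with the length of the coding transcript in place of 136 TPM for Eif4a2, 124 in place of 63.0 TPM for Eif4a1, 183 in place of 112 TPM for Eif4h and 112 in place of 66.9 TPM for Eif4g3. Those of Eif3l rose from 177 to 267 TPM, of Eif3m from 57.7 to 93.7 TPM, of Eif3d from 56.4 to 119 TPM and of Eef1d from 54.1 to 99.4 TPM. Eif4e2 rose from 30.3 to 63.7 TPM, Eif1a from 33.5 to 51.8 TPM and Eef1aknmt from 4.40 to 7.60 TPM. The rest of the 18 are given with their roles.

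eIF2 has 3 subunits, and their genes were among the lower ones of the initiation machinery. The alpha subunit, whose phosphorylation halts initiation, is encoded by Eif2s1, with 32.6, 27.1, 45.2 and 37.0 TPM. Eif2s2, the beta subunit gene, had 17.7, 18.2, 29.5 and 23.3 TPM. Its mean rose from 22.2 to 47.3 TPM with the length of the coding transcript, above the 41.4 TPM of Eif2s1.

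Eif2s3x encodes the gamma subunit, which holds GTP and the initiator tRNA (chrX:94188707-94212862, - strand). It had 150, 113, 107 and 187 counts, or 6.11, 4.53, 4.76 and 7.74 TPM, the lowest of the 3 subunit genes in each library. The length of the coding transcript left it at 4.87 TPM. Of its windows 63.8% were unique, and the pseudogene sharing most of the rest, Gm2223, had 4, 8, 3 and 1 counts.

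The gamma subunit has a second, Y-linked gene, Eif2s3y, which the rule for members left out. It had 0, 0, 712 and 0 counts, or 29.0 TPM in library 3, the library with the other Y-linked transcripts. There the sum of both genes was 33.8 TPM, beside 6.11, 4.53 and 7.74 TPM in libraries 1, 2 and 4. In library 3 the sum lay between the levels of Eif2s2 (29.5 TPM) and Eif2s1 (45.2 TPM), whereas in the other libraries it was below both. With 1 such library this has no replicate.

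The 5 genes of eIF2B, the exchange factor that reloads eIF2 with GTP, spread over a wide range. Eif2b2 (beta) had 83.7, 69.8, 132 and 102 TPM, and Eif2b5, the catalytic epsilon subunit gene, 63.0, 56.1, 85.4 and 70.4 TPM. Eif2b4 (delta) had 37.3, 34.2, 53.8 and 43.8 TPM and Eif2b1 (alpha) 32.4, 28.7, 46.4 and 38.2 TPM. Each of these 4 genes kept its rank in each library.

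Eif2b3, the gamma subunit gene of eIF2B, was lowest with 6.91, 6.52, 10.9 and 9.80 TPM. Its mean of 8.52 TPM became 28.7 TPM with the length of the coding transcript. On TPM all 5 eIF2B genes were highest in library 3 and lowest in library 2. On TMM-scaled CPM all 5 were again highest in library 3, but Eif2b3 and Eif2b4 were lowest in library 1. They had 20.6 and 44.3 there, against 21.4 and 44.8 in library 2.

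As lists, the subunit genes were compared by the median of log2(TPM + 1) within each library, as a description with no test. The eIF3 list was above the eIF2B list by 1.72, 1.67, 1.56 and 1.54 in libraries 1 to 4 (1.62 ± 0.09, SD, n = 4). The direction was the same under every length and scale tried. The eIF2 list minus the eIF2B list was -1.03, -0.87, -0.85 and -0.88, but -0.27 with the length of the coding transcript, and 0.43 on read counts scaled by library total alone, without a length. The 6 elongation genes of eEF1 and eEF2 were above the eIF3 list by 0.27 ± 0.08 (SD, n = 4), and the difference was -0.26 with the length of the coding transcript, so the order of these 2 lists depends on the length.

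The eIF2 kinases shut initiation down under stress. Eif2ak1, the kinase that senses haem, had 32.0, 25.2, 40.1 and 28.5 TPM. Eif2ak4, the sensor of uncharged tRNA, had 11.02, 10.3, 18.3 and 14.7 TPM, and Eif2ak2, the sensor of double-stranded RNA, 9.96, 5.62, 9.55 and 9.29 TPM. Eif2ak1 was the highest in each library.

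A pair of factors can bring the initiator tRNA without GTP. Eif2a, which is not a subunit of eIF2, had 37.1, 28.2, 56.9 and 45.6 TPM, and Eif2d had 18.2, 15.3, 20.6 and 18.6 TPM. With the length of the coding transcript their means rose to 89.5 and 53.7 TPM.

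Start codon choice rests on eIF1 and eIF1A. Eif1 had 167, 159, 226 and 185 TPM, and its paralog Eif1b had 64.1, 48.3, 58.6 and 56.1 TPM. eIF1A is encoded by the X-linked Eif1ax, with 40.3, 28.7, 43.9 and 40.1 TPM, and by the autosomal Eif1a, with 31.3, 30.6, 38.4 and 33.6 TPM. Their levels overlapped, unlike those of Eif1 and Eif1b.

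In the helicase group, Eif4b, whose protein stimulates the helicase, had 209, 158, 255 and 216 TPM, and Eif4h 112 ± 23.7 TPM (SD, n = 4). Eif4a2 (chr16:23107444-23114136, + strand) had 116, 128, 159.6 and 141 TPM, and Eif4a1 (chr11:69666936-69672423, - strand) 48.0, 55.3, 82.8 and 66.0 TPM. Eif4a3, whose protein sits in the exon junction complex and not at the cap, had 111, 104, 191 and 137 TPM.

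Eif4a2 was above Eif4a1 in each library. Of the windows of the Eif4a1 transcript 34.7% were unique, against 73.8% for Eif4a2, and 8 pseudogenes were among the genes that shared the rest of the former. The pseudogene that shared most, Eif4a-ps4, had 64, 66, 69 and 66 counts beside 1339, 1567, 2117 and 1811 of Eif4a1. Eif4a3l1 and Eif4a3l2, copies of Eif4a3, had 2 counts and 1 count in library 4 and none elsewhere, at or below the 3 counts that a count of 0 allows.

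The genes of cap recognition were low beside most other translation factors, though above the median protein-coding gene. Eif4e, the cap-binding protein itself, had 12.6, 10.7, 14.5 and 12.4 TPM, and Eif4e2, a relative that binds the cap without eIF4G, 31.4, 23.8, 35.6 and 30.5 TPM. Eif4e3 had 4.08, 3.83, 4.25 and 6.46 TPM. The 3 genes did not overlap.

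The inhibitors that keep eIF4E from eIF4G were uneven. Eif4ebp2 had 121, 78.8, 116 and 98.6 TPM, and Eif4ebp1 26.0, 19.9, 31.5 and 25.5 TPM. Eif4ebp3 had 1.88, 4.11, 4.78 and 2.76 TPM from 9, 20, 21 and 13 counts, and 34.5% of its windows were unique because another annotated protein-coding gene shares the rest. Eif4enif1, which carries eIF4E to the nucleus, had 55.5 ± 11.2 TPM (SD, n = 4).

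Among the scaffolds, Eif4g2, which lacks the eIF4E binding site, had 219, 157, 257 and 233 TPM. Eif4g1 had 153, 150.2, 213 and 183 TPM and Eif4g3 51.1, 58.6, 88.7 and 69.2 TPM. Eif4g2 and Eif4g1 were close, most of all in library 2, and Eif4g3 was the lowest in each library.

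Genes of the late steps of initiation were of unequal level. Eif5, the factor that makes eIF2 hydrolyse GTP, had 122, 134, 193 and 165 TPM. Eif5b, which joins the subunits, had 107 ± 18.4 TPM (SD, n = 4). Eif6, which keeps free large subunits apart from small ones, had 79.0, 64.1, 98.6 and 78.8 TPM. By these levels Eif5 was above Eif5b and Eif5b above Eif6 in each library. With the length of the coding transcript the mean of Eif6 (116 TPM) was above that of Eif5b (108 TPM).

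Related genes were compared within libraries as 12 pairs, by a two-sided exact sign-flip permutation test over the 4 libraries. The smallest p that 4 libraries allow is 0.125, so no pair could pass 0.05. In 11 pairs every library lay on the same side (p = 0.125 each, exact), and in all 12 the direction was the same with any 1 library left out. The log2 difference Eif4a1 minus Eif4a2 was -1.12 ± 0.14 (SD, n = 4), and the mean of Eif4a2 was 2.16 times that of Eif4a1. Eif4ebp2 was above Eif4ebp1 by 1.97 ± 0.15, and Eif4ebp1 above Eif4ebp3 by 2.64 ± 0.51, all on the log2(TPM + 1) scale.

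**Figure D3:**
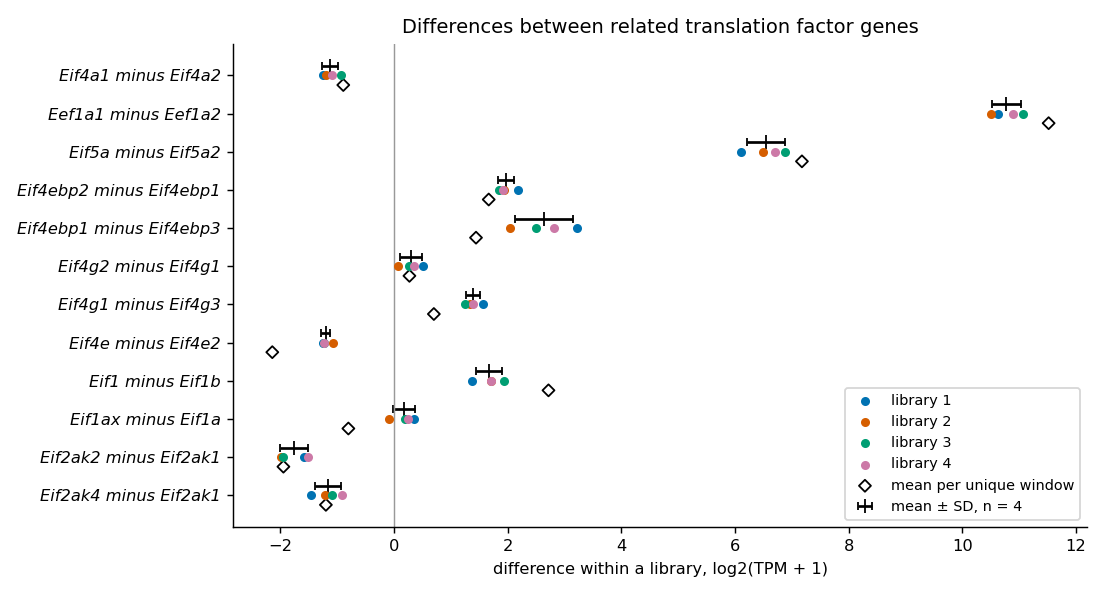
Difference in log2(TPM + 1) between 12 pairs of related genes in each library (points), its mean ± SD over 4 libraries (bars), and the mean with counts divided by the number of unique windows (open diamonds). In 11 pairs all points lie on 1 side of 0, and the pair Eif1ax minus Eif1a has points on both sides and a diamond below 0.

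The remaining differences are also in the plot of pairs. Eif4e minus Eif4e2 was -1.20 ± 0.08 log2 units (SD, n = 4), with the smallest SD of the 12 pairs. Eif4g1 was above Eif4g3 by 1.39 ± 0.13, and Eif4g2 above Eif4g1 by 0.30 ± 0.19, with 0.06 in library 2. Eif1 was above Eif1b by 1.68 ± 0.23. Of the eIF2 kinases, Eif2ak2 minus Eif2ak1 was -1.76 ± 0.24 and Eif2ak4 minus Eif2ak1 was -1.17 ± 0.23. The difference of Eef1a1 and Eef1a2, 10.77 ± 0.25, depends on the pseudocount of 1, since Eef1a2 was close to 0.

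Eif1ax and Eif1a were the exception. Eif1ax was above Eif1a by 0.35, 0.19 and 0.25 log2 units in libraries 1, 3 and 4, and the difference was -0.09 in library 2 (mean 0.17 ± 0.19, SD, n = 4, exact p = 0.25). With the length of the coding transcript the mean difference turned to -0.72, and per unique window to -0.80. Lengths also moved 5 other pairs by more than 1.5 times under one length or the other. In 3 of them it was so with the length of the coding transcript, where Eif4a1 minus Eif4a2 was -1.96, Eif4e minus Eif4e2 -2.29 and Eif4g1 minus Eif4g3 0.71. Per unique window the differences were -0.89 for the helicases, -2.14 for the cap-binding proteins, 0.70 for the scaffolds, 1.44 for Eif4ebp1 and Eif4ebp3 and 2.72 for Eif1 and Eif1b.

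The 4 libraries were then compared gene by gene. Counts of 11982 genes were fitted with edgeR without any group term, and the test asked whether a gene's spread was larger than genes of its level usually show. Of 62 translation factors tested, 0 passed at an adjusted p under 0.05 (edgeR's quasi-likelihood fit, Benjamini-Hochberg), against 0.00835% of all genes tested, which is 1 gene. At an unadjusted p under 0.05 were 0 of 62, against 4.97% of all. The usual spread was estimated from these same genes, so a share over all of them near the threshold comes with the method. limma-voom and DESeq2 called none of the 62 either. The 6 left out because of low counts were Eif4ebp3, Eef1akmt3, Eif3j2, Eef1a2, Eif4a3l1 and Eif4a3l2. A gene nearly absent from 1 library could be lost to this filter, as Eef1akmt3 was with 1 count in library 3.

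The 5 nearest to the threshold were Eif2a, Eif4a3, Eif2b2, Eif4a1 and Eif4g3, each with an adjusted p of 0.990 in edgeR's quasi-likelihood fit. On CPM (counts scaled by library total) with edgeR's TMM factors, Eif2a had 104, 87.0, 137 and 121, a range of 1.58 times between libraries. Eif4a3 had 108, 111, 160 and 126 TMM-scaled CPM. Both were highest in library 3. The least variable were Eif2d, at 61.3, 56.9, 59.8 and 59.7 TMM-scaled CPM, with Eif1a and Eif4e next, whose ranges between libraries were 1.08 and 1.07 times.

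Translation factors as tested had a median coefficient of variation of 10.9% between libraries and a median range of 1.27 times, and all genes tested had 15.5% and 1.42 times. These medians are not matched for level. The most variable of the 62 were Eif2s3x (24.9%), Eif4e3 (24.4%) and Eef2k (22.3%), all below 15 TMM-scaled CPM in each library. Counts were also simulated with the libraries' own means and sizes, each gene given the spread usual for its level. In them the same test recovered 66% of genes that were raised 4-fold in 1 library and all that were raised 16-fold. Losses in 1 library, and changes in genes with the fewest counts, were not simulated. Real genes of the same level differ in spread, so recovery among them may be lower. Changes of 4-fold in 1 gene, and smaller ones, could be missed.

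**Figure D4:**
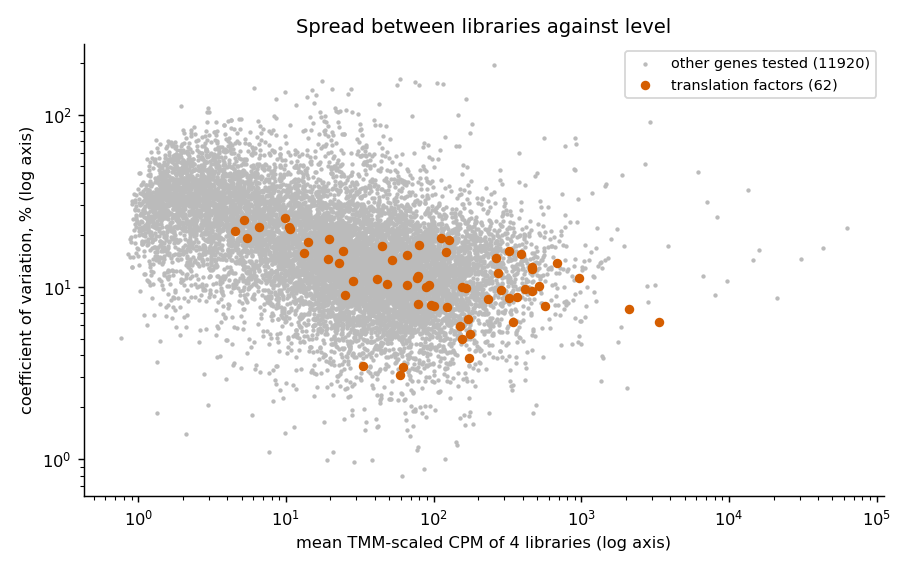
Coefficient of variation between the 4 libraries (percent, log axis) against mean TMM-scaled CPM (log axis) for 62 translation factors (large points) and the other genes tested (small points). The translation factors lie inside the cloud of other genes, from 3.06% for Eif2d to 24.9% for Eif2s3x, and Eef2, the most abundant, has 6.21%.

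No single gene passed, but the libraries ranked alike for many of them. On TMM-scaled CPM, library 3 was the highest of the 4 for 35 of 62 translation factors (56.5%), against 27.8% of all genes tested, and library 2 was the lowest for 33 of 62 (53.2%), against 26.7%. Library 1 was highest for 14 and lowest for 21, and library 4 for 7 and 4. The median deviation from a gene's own mean was -0.06, -0.13, 0.13 and 0.04 log2 units in libraries 1 to 4 for translation factors and between -0.003 and 0.008 for all genes. In library 3, 51 of 62 were above their mean, and in library 2, 12 of 62. These are counts over genes measured in the same libraries, so they come without a test.

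**Figure D5:**
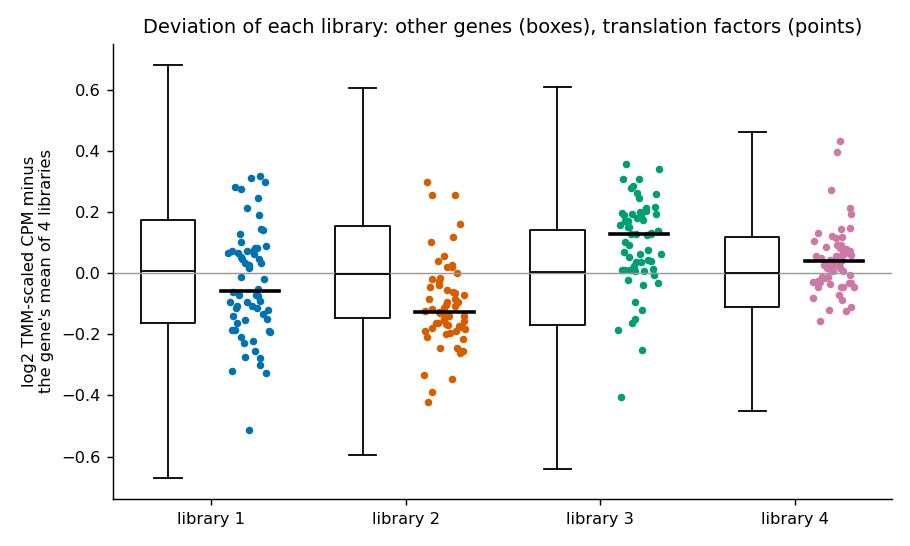
Deviation of each library from a gene's own mean over the 4 libraries (log2 TMM-scaled CPM), with 62 translation factors as points (thick line, their median) and all other genes tested as boxes (median, quartiles and whiskers to 1.5 interquartile ranges, outliers not drawn). The medians of the points are lowest in library 2 (-0.13) and highest in library 3 (0.13), whereas the boxes are centred near 0.

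The plot of deviations shows the points of library 2 mostly below 0 and those of library 3 mostly above it. Libraries 2 and 3 were also at an end of other values. Total counts were lowest in library 2 (13777954) and highest in library 3 (14629025). Library 2 had the highest share of mitochondrial counts (23.3%) and the lowest sums of germinal centre (1303 TPM) and myeloid markers (126 TPM). It also had the highest sum of naive and memory markers (2615 TPM), of which Klf2 alone made up 1630 TPM. Of that list Fcer2a was highest in library 3 (533 TPM, against 385 TPM in library 2), and the other genes were highest in library 2. Library 3 had the lowest mitochondrial share (18.1%), the highest sums of germinal centre (2232 TPM) and B lineage markers (5038 TPM), the lowest of plasma cell (791 TPM), T cell (158 TPM) and erythroid and platelet markers (55.2 TPM), and it alone carried Y-linked transcripts. Their part in the shift was not tested.

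Scaling by DESeq2's size factors gave nearly the same medians (-0.06, -0.12, 0.12 and 0.04). On plain CPM, without such factors, they were -0.05, -0.21, 0.17 and 0.08 for translation factors and 0.01, -0.08, 0.04 and 0.04 for all genes. On plain CPM, 54 of 62 translation factors were above their mean in library 3, against 57.4% of all genes tested. In library 2 it was 6 of 62, against 36.1% of all. On TPM, library 3 was highest for 53 of 68 and library 2 lowest for 51 of 68. The share over all genes was not counted on TPM, so these counts have no background beside them.

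Genes that work beside these factors were taken from lists by role. For termination and recycling, 7 genes were listed, led by Etf1, which reads stop codons, with 105, 101.2, 193 and 153 TPM. The lowest was Gspt2 with 0.288, 0.202, 0.224 and 0.459 TPM. Of the 6 tested for variation 0 passed, adjusted or unadjusted, in edgeR's quasi-likelihood fit.

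Among 11 genes of poly(A) binding and cap control, Pabpc1, the poly(A)-binding protein gene, had 482, 401, 543 and 505 TPM. Paip2b, from a family of inhibitors of that protein, had 9.46, 6.47, 10.6 and 11.56 TPM. Of 11 tested 0 passed, adjusted or unadjusted.

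Of 10 genes for hypusine, for diphthamide (the modified histidine of eEF2) and for selenocysteine insertion, Eefsec, the selenocysteine elongation factor, had 40.9, 34.2, 46.3 and 38.5 TPM. Dph6 had 5.20, 4.38, 7.39 and 6.58 TPM. Here too 0 of 10 passed, adjusted or unadjusted.

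Of the 7 genes of eIF2 phosphatases and the response to eIF2 phosphorylation, Atf4, the transcription factor made when eIF2 is phosphorylated, had the highest mean, with 356, 410.3, 579 and 483 TPM. Ppp1r15a, a phosphatase subunit gene, was close to it and above it in libraries 1 and 2, with 359, 567, 403 and 465 TPM. Impact, an inhibitor of the tRNA-sensing kinase, was lowest with 10.3, 14.9, 20.9 and 24.2 TPM. Variation passed in 0 of 7 after adjustment and in 2 of 7 before it, Impact (adjusted p = 0.990) and Ddit3 (adjusted p = 0.743, edgeR's quasi-likelihood fit). Over all genes tested 4.97% passed before adjustment and 1 gene after it, which is the background for the other lists too. A list of 7 genes is too short to set against that share. Ddit3, a target of Atf4 picked here after its value was seen, had 40.3, 73.1, 112 and 96.4 TPM, lowest in library 1 and highest in library 3.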

How the data were processed

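Read counts per gene were used as the authors deposited them, whole numbers, 1 table per library, not normalised. The submitters' processing notes name mm10, STAR 2.5.2b, featureCounts 1.6.0 and FastQC. Reads were single-end of 50 bases with 20 M planned, per the labels. The annotation release, strand setting and treatment of multiple matches are not given in the sources used here, so paralogs, pseudogene copies and overlapping or antisense genes cannot be fully separated. Members and lists were chosen with earlier results of these data known. 2 cell type markers are not reported here and were left out of their lists' sums. The rule for naming let every member be named. Values per library are given for paired genes, the ends of each role list, the subunits of eIF2, eIF2B and eIF3, Eef2k, Eif6, Eif4e and the 5 smallest p, and for the ends of each pathway list.

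Lengths came from GENCODE M21 (GRCm38), which matched 37536 of 37646 genes, and gave a length to every translation factor. Python 3.11.15 with pandas 2.3.3 and scipy 1.17.1 computed TPM, shares with exact binomial intervals and pair differences on log2(TPM + 1). Windows of 50 bases were called unique where no other gene's annotated transcript held them on either strand. The variation test used R 4.3.3 and edgeR 4.0.16 (TMM, filterByExpr, intercept-only glmQLFit, upper tail of F, Benjamini-Hochberg over all genes), and the biological coefficient of variation was 21.8%. Limma 3.58.1 and DESeq2 1.42.0 were alternatives, beside other scalings, filters, pseudocounts, lengths and each library left out. The test was tried on simulated data among 11710 genes, drawn at the spread fitted to their level, with 0 false calls. At these depths 3 counts correspond to 0.205 to 0.218 CPM.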

Additional observations from a re-analysis of the deposited data

Results flagged for a closer look

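Of 68 genes, each over 4 libraries, 4 had 1 library far from the others in TPM. Chance marks about 1 in 20 such groups, and 4 of 68 is near that share, so the genes are listed without being read as results. Eif2ak2, the kinase that senses double-stranded RNA, had 5.62 TPM in library 2, where the others had 9.29 to 9.96 TPM. Eif4e3 had 6.46 TPM in library 4, where the others had 3.83 to 4.25 TPM. Eif4a3l1 had 0.201 TPM and Eif4a3l2 0.116 TPM in library 4 and 0 in the others, from 2 counts and 1 count. Where all other libraries are at 0, any count is marked. Eif2ak2 and Eif4e3 had an adjusted p of 0.990 in edgeR's quasi-likelihood fit, and the copies of Eif4a3 were left out of that fit because of their low counts.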

How the results depend on the processing

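No paired analysis was possible because all libraries belong to 1 group. No translation factor passed the variation test under any alternative. At an unadjusted p under 0.05 there was 1 (Eef1akmt3) when genes with any count were tested and 0 under the others with such a p. Over all genes the number passing was 1, and 262 with any count, 63 with the robust option, 0 with limma-voom (603 at an unadjusted p under 0.05), 159 dispersion outliers with DESeq2, and 0 to 19 with 1 library left out, 19 without library 3.

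Of the pairs, only Eif1ax minus Eif1a turned, from 0.17 to -0.72 with the coding transcript length and -0.80 with unique windows, 2 alternatives chosen after seeing the data. The elongation list minus the eIF3 list (0.27) became 0.40 on CPM without length, -0.26 with the coding transcript length, 0.74 with list means and 1.08 with genes of at least 1 CPM. The eIF3 list minus the eIF2B list (1.62) became 1.85, 2.10, 1.05 and 1.77 in that order, and 2.20 with unique windows. The eIF2 list minus the eIF2B list (-0.91) became 0.43, -0.27 and -1.17 under the first 3 of these and -0.16 with unique windows. Windows with a pyrimidine run rose from 3.85% at the start to 32.7% within 10 bases. TPM over protein-coding genes without mitochondrial and immunoglobulin genes left the number of translation factors at 1 TPM or more at 63 and raised single levels, that of Eef2 from 2296 to 5378. Depth limits the genes with few counts, Eef1a2, Eif3j2, Eef1akmt3 and the copies of Eif4a3.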
